A study of Mus musculus with 12 samples.

Results

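This is a description of the miRs in the livers of 5 wild-type (WT) female mouse fetuses at E18.5, shortly before birth. Of the 1927 entries in the miR-seq count table, 621 had a count in at least 1 of the 5 WT libraries, and 388 had a mean of at least 10 counts over them. These 388 were selected on that mean, so their levels are given as a description with no test (the members below). They held 99.9% of all miR counts of each library, while the other 233 miRs with a count made up the rest. The fetuses were unmanipulated littermates of *Mir483*Pat-KO fetuses on a C57BL/6J background, each liver gave 1 library, and the *Mir483*Pat-KO libraries of the study were not used. No genotype, treatment or time point was compared here, and a two-sided sign-flip test of any ordering within 5 fetuses cannot go below p = 0.0625 (exact), so orderings are given as the number of fetuses that show them.

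miRs are cut from hairpin precursors that carry a possible mature miR on each side, the 5p arm and the 3p arm, and usually only one arm is loaded into an Argonaute protein. Bases 2 to 8 of the mature miR, its seed, do most of the pairing with target mRNAs, so miRs with the same seed form a family. The fetal liver holds hepatocytes together with the blood-forming cells that mature there before birth, and its miRs come from both. In a whole-liver library, fewer cells of a type and less RNA per cell cannot be told apart.

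The following mature miRs carry the main patterns: several of the most abundant seeds, the large families and a pair of hairpins that are read from both arms. The abundant *miR-122-5p* and *miR-143-3p* are not listed because no sequence was at hand for them. Sequences are those of RefSeq on GRCm38.p6, written 5′ to 3′ with the seed in capitals.
miR-127-3p: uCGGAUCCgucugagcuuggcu
miR-22-3p: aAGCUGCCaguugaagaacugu
miR-192-5p: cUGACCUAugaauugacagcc
miR-215-5p: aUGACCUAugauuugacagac
miR-411-5p: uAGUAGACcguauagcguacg
miR-30a-5p: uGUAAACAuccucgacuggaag
miR-30e-5p: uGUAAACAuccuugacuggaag
miR-30c-5p: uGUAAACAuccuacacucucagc
let-7a-5p: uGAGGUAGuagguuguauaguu
let-7f-5p: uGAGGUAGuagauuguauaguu
let-7g-5p: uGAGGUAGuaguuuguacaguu
let-7d-5p: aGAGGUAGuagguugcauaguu
miR-136-5p: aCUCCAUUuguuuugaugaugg
miR-136-3p: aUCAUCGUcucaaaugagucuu
miR-434-5p: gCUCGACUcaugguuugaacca
miR-434-3p: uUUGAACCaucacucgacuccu
The *miR-30* and *let-7* lines show members that share all 7 seed bases and differ further along, so reads with an error or a trimmed end could be given to a neighbour. The levels of single *let-7* and *miR-30* members are for that reason less certain than the sum of their family. The *miR-136* and *miR-434* lines show arms of 1 hairpin with different seeds.

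Total counts per library lay between 711810 and 1211160, highest in WT 1 and lowest in WT 3. Levels are counts scaled to the total miR counts of the library (CPM, where 10000 CPM is 1% of counts), which need no length scaling because mature miRs are of nearly equal length. The floor of 3 counts came to 2.48 to 4.21 CPM and allows for counting error alone, because PCR copies of 1 molecule are counted as separate reads. Libraries also differ from tissue in that adapters join to some miRs better than to others, so a level says how often a miR was read and not how many molecules a cell held. Across the 388 members, Pearson's r of log2(CPM + 1) between pairs of fetuses was 0.954 to 0.978, a value that rests on the wide range of levels the libraries share.

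The imprinted *miR-127-3p* and the hepatocyte *miR-122-5p* were the 2 most read miRs in every fetus. *miR-127-3p* is made from a transcript antisense to *Rtl1* and is known from placenta and fetal tissues. It stood at 145750, 156371, 149641, 155160 and 155698 CPM in WT 1 to WT 5, with a mean of 152524 ± 4637 CPM (SD, n = 5) or 15.3% of counts. *miR-122-5p*, the classical liver miR that acts on cholesterol and lipid metabolism, stood at 154966, 136582, 145488, 141701 and 135172 CPM, with a mean of 142782 ± 7958 CPM. The ranges overlapped, and *miR-127-3p* was the higher in 4 of 5 fetuses, all but WT 1.

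*miR-22-3p*, a miR of many tissues, followed at 123248 CPM in WT 1 and 89168 to 102467 CPM in the other 4 fetuses. *miR-30a-5p* varied little, between 74350 and 80384 CPM. *miR-192-5p*, a miR of liver and gut, reached 52524 CPM in WT 5 and 36610 to 42338 CPM elsewhere. From *miR-122-5p* to *miR-192-5p* the order was the same in every fetus with no overlap of ranges, and the step from *miR-30a-5p* (mean 77618 CPM) to *miR-192-5p* (mean 42224 CPM) was the widest of the top 5 by ratio, 1.84 times.

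Below the top 5 the order was loose. *miR-143-3p*, a miR of smooth muscle and other mesenchyme, came next at 30719 ± 2186 CPM (SD, n = 5). The next places were taken by *miR-411-5p* (25688 CPM), *miR-30e-5p* (24827 CPM), *miR-21a-5p* (21611 CPM), *let-7a-5p* (17693 CPM) and the joint entry of *miR-101a-3p*, *miR-101b-3p* and *miR-101c* (17487 CPM). The remaining 9 of the top 20 ran from *let-7f-5p* at 15234 CPM through *miR-136-3p*, the erythroid *miR-486a-5p/486b-5p*, *miR-410-3p*, *miR-30c-5p*, *miR-181a-5p*, *miR-541-5p* and *miR-136-5p* to *let-7g-5p* at 10467 CPM. Of the 19 pairs of neighbours in the top 20, 8 stood in the same order in all 5 fetuses and 6 had ranges that did not overlap. From *miR-101a-3p* down, the ranges of neighbours in the list overlapped. *miR-181a-5p* was above *miR-541-5p* in only 2 of 5 fetuses although its mean was higher, with its highest value, 13185 CPM, in WT 4. In all, 16 miRs were in the top 20 of every fetus and 23 were in the top 20 of at least 1.

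**Figure D1:**
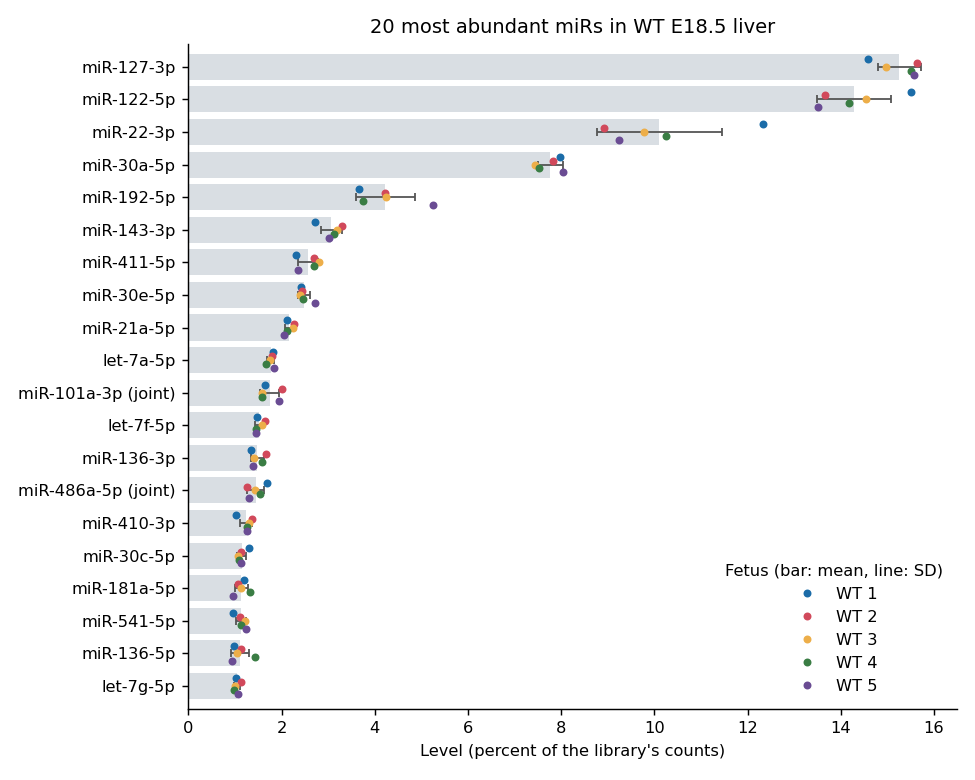
Level of the 20 most abundant miRs as a percent of each library's miR counts. Entries marked joint hold several miRs. Bars are means of 5 fetuses, lines are SDs and points are single fetuses. The first 4 miRs stand apart from the rest, and WT 1 is the high point of *miR-22-3p* and WT 5 that of *miR-192-5p*.

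A few miRs took most of the counts. The 4 most read miRs of each library, the same 4 in every fetus, held 47.4% ± 1.75 (SD, n = 5) of its counts, the 10 most read held 63.7% ± 0.98, and the 100 most read held 96.7%. It took 4 miRs in WT 1 and 5 in each of the other fetuses to reach 50% of counts, and 41 to 45 miRs to reach 90%. Of the members, 3 were above 100000 CPM, 18 between 10000 and 100000, 51 between 1000 and 10000, 127 between 100 and 1000, and 189 below 100 CPM. The 189 lowest members, nearly equal in number to all the others, together held 0.674% of counts.

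At the limit used to choose members, *miR-532-3p* had 11, 8, 8, 12 and 11 counts in WT 1 to WT 5, and *miR-200c-3p* and *miR-31-3p* each had a mean of 10.2 counts. Just outside it, *miR-224-5p* and *miR-669a-3p/669o-3p* each had a mean of 9.8 counts and *miR-3101-5p* had 15, 13, 0, 20 and 0. The miRs on both sides of the limit thus had overlapping counts, and membership at this end is a matter of counting.

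**Figure D2:**
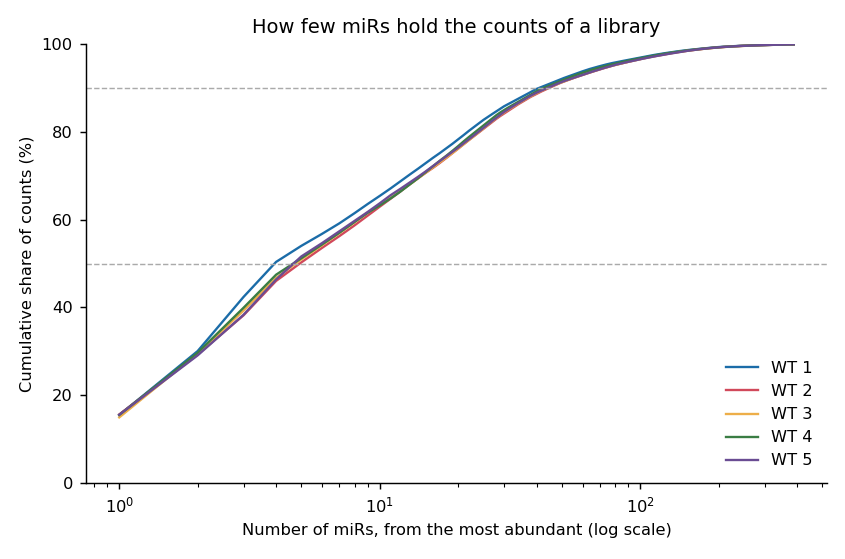
Cumulative share of each library's miR counts against the number of miRs taken from the most abundant down (log scale), 1 line per fetus. Dashed lines mark 50% and 90%. The 5 lines nearly coincide, and WT 1 lies above the others at 4 miRs.

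Grouped by seed, the members fell into 319 families, of which 280 had a single member and 39 had more than 1. The 39 larger families held 108 miRs and 29.1% ± 0.91 (SD, n = 5) of counts. The 10 families with most counts held 71.1% ± 1.0, and 7 of these 10 were single miRs, among them *miR-127-3p*, *miR-122-5p* and *miR-22-3p*. For 44 members, *miR-122-5p* and *miR-143-3p* among them, no sequence was at hand, so they stood apart without a comparison of seeds. Most counts thus lay outside the families with several members.

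The *miR-30* family, which has been linked to bile duct and hepatocyte development, was the largest family of more than 1 member by counts. It held 11.9%, 11.6%, 11.1%, 11.3% and 12.1% of counts in WT 1 to WT 5, a mean of 11.6% ± 0.42. *miR-30a-5p* alone gave 66.8% of the family, followed by *miR-30e-5p* and *miR-30c-5p* (11439 CPM), with *miR-30d-5p* (1316 CPM) and *miR-30b-5p* (986 CPM) far behind. The *let-7* family, whose maturation is held back by Lin28 in early embryos and released as tissues mature, had the most members, 9 with *miR-98-5p*. It held 6.02%, 6.28%, 6.15%, 5.78% and 5.92% of counts, a mean of 6.03% ± 0.20, and its counts were spread more evenly, with 29.3% from *let-7a-5p*. *let-7a-5p*, *let-7f-5p*, *let-7g-5p* and *let-7i-5p* (8183 CPM) led it, and *let-7b-5p*, at 362 CPM, was the lowest.

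In 3 further families, given as examples, 1 miR gave most counts. In the *miR-192*/*miR-215* family, *miR-192-5p* gave 99.9% of counts and *miR-215-5p*, which shares its seed, stood at only 24.7 CPM. The 4 members of the *miR-181* family, known from lymphocyte development, held 1.57% ± 0.19 of counts, of which *miR-181a-5p* gave 72.4%. The family of *miR-92a-3p* (6696 CPM), *miR-25-3p* (2314 CPM) and *miR-32-5p* (34.1 CPM), whose first 2 members are made from clusters known for driving cell proliferation, held 0.904% of counts. Not every family had such a leader. In that of *miR-16-5p*, named after its values were seen, the first member gave 35.9% of counts.

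By position, the region between *Dlk1* and *Dio3* on chromosome 12 gave far more counts than the other imprinted places examined. This imprinted region expresses its miRs from the maternal chromosome as parts of long noncoding transcripts. On GRCm38 it runs from *Dlk1* at chr12:109452823-109463336 to *Dio3* at chr12:110279068-110281097, and of the 67 miR genes that GENCODE places in it, mature miRs of 78 entries were members. Together they made up 26.8%, 30.4%, 29.5%, 30.1% and 29.8% of counts in WT 1 to WT 5, a mean of 29.3% ± 1.45 (SD, n = 5). WT 1 lay below the other 4 fetuses, which were within 0.86 percentage points of each other. *miR-127-3p* was 52.1% of this on average, and 15 of the 78 members exceeded 1000 CPM.

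Within the region the counts were uneven. The 7 miR genes within the bounds of *Rtl1*, taken on either strand, gave 19.7% ± 0.78 of all counts. *miR-127-3p*, both arms of *miR-136* and both arms of *miR-434* led them. *Mirg*, a downstream noncoding RNA that hosts 15 annotated miR genes, gave 3.82% ± 0.33, led by *miR-410-3p* (12388 CPM) and *miR-541-5p* (11296 CPM). *Rian* gave 0.470%, and *Meg3*, the noncoding RNA at the start of the unit, gave 0.0101% through its 2 members. *Mir127* itself lies at chr12:109592846-109592915 and *Mir136* at chr12:109595327-109595388, and the cluster that holds them (14 annotated genes, no gap over 10 kb) gave 20.04% of counts. The cluster from chr12:109709060-109747960, with 39 annotated genes, gave 8.80% ± 0.68, and *miR-411-5p*, whose gene is at chr12:109710175-109710256, was its most read miR.

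WT 1 was low over the whole region and not only at its leading miRs. Among the 55 members of the region with a mean of at least 100 CPM, 42 had their lowest value in WT 1 and none had its highest there, whereas among the 144 other members above 100 CPM 37 were lowest in WT 1. Set against each miR's median over the fetuses, the middle member of the region was at 0.851 times that median in WT 1 (−0.23 on the log2 scale) and between 0.987 and 1.06 times in the other 4, while the middle member outside the region stood at the median itself (log2 deviation 0) in WT 1. CPM are shares, and WT 1 was also the fetus with the most *miR-22-3p* and *miR-122-5p*. Scaled by TMM, which is less affected by a few abundant miRs, the shift in WT 1 was smaller, −0.13 on the log2 scale, and 28 of the 55 were lowest there. WT 1 was the most deeply sequenced library, and the part of depth in this difference was not tested.

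**Figure D3:**
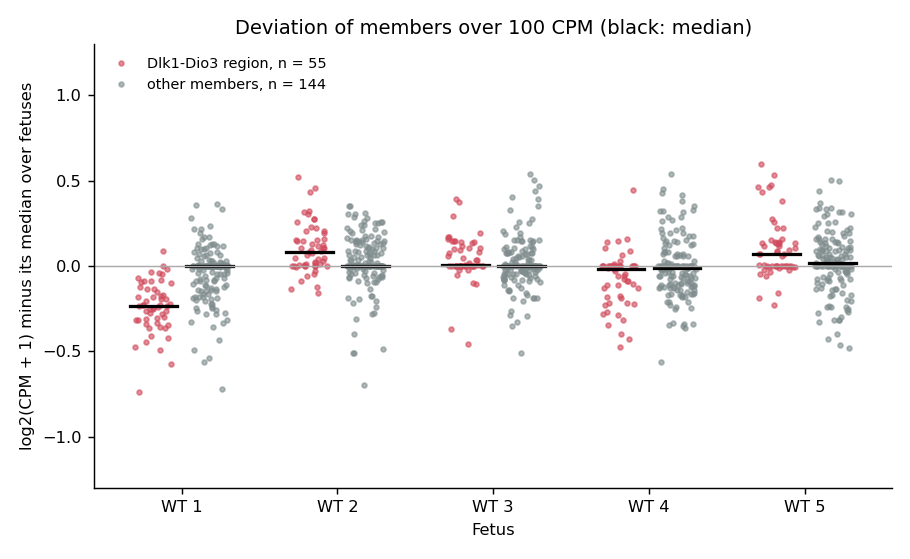
Deviation of each member above 100 CPM from its own median over the 5 fetuses, on the log2(CPM + 1) scale. Red points are the 55 members of the *Dlk1*-*Dio3* region, grey points the 144 others, and black bars medians. The red points of WT 1 lie mostly below 0 with a median of −0.23. Both values of *miR-155-5p* above 0 lie outside the axis.

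The other imprinted places examined, *Igf2*, *H19* and *Sfmbt2*, gave little. Imprinted loci beyond these were not summed. *Igf2* hosts *Mir483*, and both its arms were members: *miR-483-3p* stood at 1058, 1083, 1030, 1016 and 1319 CPM in WT 1 to WT 5, with a mean of 1101 ± 125 CPM and rank 71 of 388, and *miR-483-5p* at 308 ± 26.3 CPM. The 4 lower fetuses were close together for *miR-483-3p*, and WT 5 was above them. *H19*, the noncoding RNA beside *Igf2* that is expressed from the other parental chromosome, hosts *miR-675*, which stood at 72.04 ± 10.8 CPM for the 3p arm and 19.6 ± 4.27 CPM for the 5p arm. The intron of *Sfmbt2* on chromosome 2 that holds a rodent miR cluster, abundant in placenta, is annotated with 119 miR genes. An entry can stand for several genes, so this number is no base for a share of entries. Of its entries, 9 were members, and they summed to 0.0216% ± 0.0034 of counts. Without the 1 entry that also has a gene elsewhere the sum was 0.0193%. Its highest entry, *miR-669a-5p/669p-5p*, was at 44.1 ± 15.4 CPM, with WT 2 the highest of the 5. It was followed by *miR-467a-5p/467b-5p* (31.4 CPM), *miR-467e-5p* (29.0 CPM), *miR-669c-5p* (26.6 CPM) and *miR-467c-5p* (24.2 CPM). The H19 and Sfmbt2 entries rest on fewer than 100 counts in each library.

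miRs of neighbouring genes, which are often cut from a shared primary transcript, were read at unlike levels. This could be followed in 23 clusters that had at least 2 hairpins with members whose mature miRs come from no other gene. Hairpins and arms under the limit of a mean of 10 counts were left out, so lower hairpins of a cluster can be missing. The most read hairpin of a cluster exceeded the least read of those followed by a median of 5.08 times. It did so by 10 times or more in 7 clusters and by less than 2 times in 4. *Mir144* and *Mir451a*, which are made together in erythroid cells and of which *miR-451a* is cut by Argonaute 2 instead of Dicer, differed by 1.64 times (5139 and 8427 CPM). *Mir143* and *Mir145a*, a mesenchymal pair, differed by 96.1 times (30736 and 320 CPM). In the epithelial cluster of *Mir200b*, *Mir200a* and *Mir429*, *miR-429-3p* at 1276 ± 238 CPM was read about 9.39 times as often as *Mir200b* at 136 ± 13.3 CPM, and at least 6.28 times as often in every fetus. The 2 long *Dlk1*-*Dio3* clusters had the widest ranges, over 1000-fold, from *Mir127* to *Mir770* and from *Mir411* to *Mir1193*. The clusters named here were chosen after their values were seen.

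Arm use was followed in 243 of the 769 hairpin groups with both arms listed, those with at least 1 member. A group joins hairpins whose mature arms cannot be told apart, and its arm use is the share of its counts on the 5p arm. The 5p arm held 90% or more of counts in 84 groups, the 3p arm did so in 79, and 80 groups lay between. In 31 of these 80 each arm held over 33.3%, and they are the even groups below. Entries of 5p arms held more of all counts, 54.7% ± 0.39 (SD, n = 5), than those of 3p arms, 43.7% ± 0.42, in each of the 5 fetuses. The leading arm was the same in all 5 fetuses in 229 groups and changed in 14, and in 63 groups the lesser arm had no count in any library.

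The most abundant hairpins were nearly one-armed. The 5p arm held 99.75% of *miR-122*, 99.3% of *miR-30a*, 99.95% of *miR-192*, 98.6% of *miR-411* and 99.4% of *miR-30e*. The 3p arm held 99.4% of *miR-127*, 99.98% of *miR-22*, 99.94% of *miR-143*, 99.94% of the *miR-101* group and 99.91% of *miR-410*. The lesser arm of so abundant a hairpin could still outrank most miRs, as *miR-127-5p* did with 888, 927, 671, 763 and 935 counts in WT 1 to WT 5, or 902 ± 117 CPM at rank 76. *miR-22-5p*, by contrast, had only 8 to 28 counts in a library beside at least 69584 of *miR-22-3p*.

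*miR-136* was the most abundant even hairpin. Its 5p arm held 42.3%, 40.6%, 42.7%, 47.6% and 40.5% of counts in WT 1 to WT 5, a mean of 42.7% ± 2.87 (SD, n = 5), and the 3p arm led in every fetus. Counting error alone would give an SD of 0.323 points, so the fetuses differed beyond it, with WT 4 the highest. *miR-434*, from the same *Rtl1*-antisense cluster, leaned the other way, with 61.2% ± 2.46 on the 5p arm and 5p leading in every fetus. The erythroid *miR-144* had 33.3% ± 2.44 on its 5p arm, with *miR-144-3p* as the larger. *miR-24*, whose 5p arms from 2 genes were summed, was almost balanced at 52.4% ± 1.59. So was *miR-151* at 49.9% ± 3.33, where WT 5 at 55.7% lay apart from the other 4 at 47.7% to 48.9%.

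The other even groups named by level were *miR-199a/199b* (58.8% ± 2.29 on the 5p arm), the endothelial *miR-126a* (35.4% ± 2.71), *miR-540* (47.2% ± 6.88), *miR-106b* (64.2% ± 2.42) and *miR-379* (60.9% ± 4.57). *miR-540* was the least steady of them, with 39.2% in WT 3 and 56.7% in WT 2, so that its leading arm changed between fetuses. Among groups between the one-armed and the even, *miR-142a*, a miR of all white blood cells, had 85.4% ± 1.29 on its 5p arm. *miR-148a*, abundant in hepatocytes, had 22.9% ± 1.70, *miR-369* 13.3% ± 0.92, *miR-322* 30.7% ± 2.56, *miR-483* 21.9% ± 2.05 and *miR-675* 21.5% ± 3.93. Thus both *miR-483* and *miR-675* were read mostly from the 3p arm, with a clear lesser arm.

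**Figure D4:**
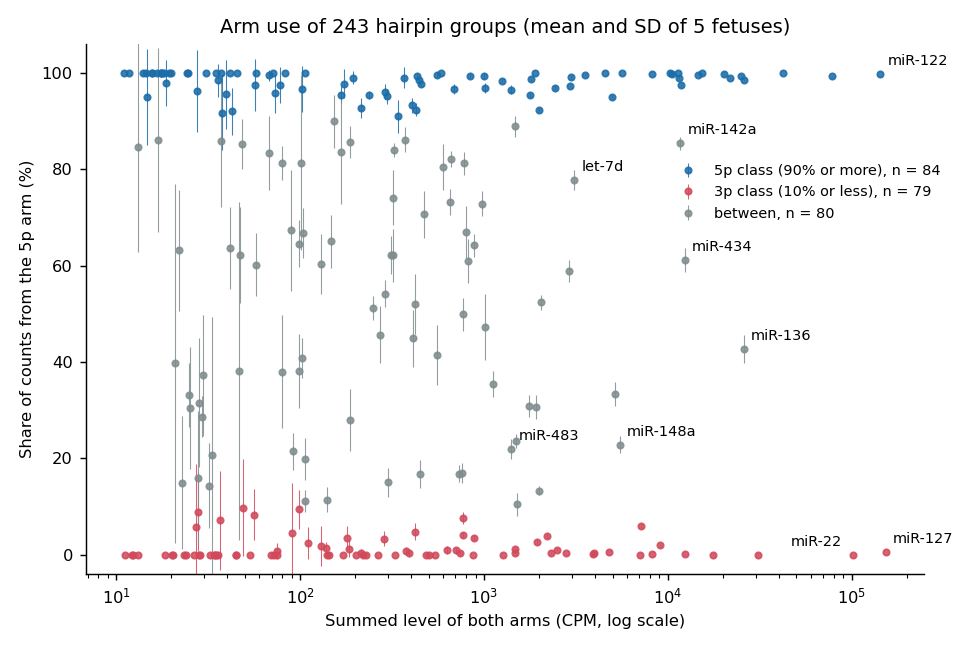
Share of counts on the 5p arm against the summed level of both arms (log scale) for 243 hairpin groups. Points are means and lines SDs of 5 fetuses. Most of the most abundant groups lie at the top or bottom edge, and *miR-136*, *miR-434* and *miR-142a* are the exceptions above 10000 CPM.

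Hairpins with the same seed did not always share arm use. These examples were chosen after their values were seen. Of the *let-7* groups, *let-7a/7c*, *let-7f*, *let-7g*, *let-7i*, *let-7e/7k*, *let-7b* and *miR-98* had 95.4% to 99.9% of counts on the 5p arm, whereas *let-7d* had 77.8% ± 2.12, with 74.3% to 79.7% in single fetuses. In the *miR-30* family the 5p share was 88.9% ± 2.23 for *miR-30d* and 96.9% to 99.4% for the other 4. The 3p arms of *miR-148a*, *miR-148b* and *miR-152* share a seed, and this arm led in *miR-148a* and *miR-148b* (5p share 30.9% ± 2.37), while in *miR-152* the 5p arm led with 73.3% ± 2.72. The ranges of *miR-152* and its paralogs did not overlap.

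The 2 arms of a hairpin tended to move together between fetuses. Over the 49 groups with both arms at 100 CPM or more, the log levels of both arms covaried positively over the fetuses in 36. The log ratio of the arms varied between fetuses with a median SD of 10.3% beyond counting error, and both arms taken as if independent would have given 16.8%. Arms of different hairpins were not compared in this way. Several of the groups lie in the *Dlk1*-*Dio3* region, where 42 of 55 members above 100 CPM were lowest in WT 1. Such a shared shift also makes arms covary, so these values are not particular to arms of 1 hairpin. Among the 176 groups with both sequences at hand, the leading arm began with U in 55.1% and the other arm in 21.02%. In the 112 one-armed groups these shares were 59.8% and 12.5%, and among the 26 even groups they were 13 and 8 groups. Argonaute proteins are known to bind guide strands that begin with U well. The first 4 bases held 1.70 G or C on average in the leading arm and 2.10 in the other. Weighted by counts, miRs that begin with U held 60.7% ± 1.08 of the counts with a sequence, although they were 44.2% of the 339 members with one. The weighted share leans on *miR-127-3p*, which begins with U and alone held 15.3% of all counts. *miR-122-5p*, with 14.3% of all counts, had no sequence and is not in it.

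miRs that mark cell types were read for hepatocytes, erythroid and white blood cells, mesenchyme, endothelium and epithelium. The 7 hepatocyte miRs (both arms of *miR-122*, *miR-192-5p*, *miR-194-5p*, *miR-148a-3p*, *miR-101a-3p* and *miR-802-5p*) were all members and summed to 209456 ± 5603 CPM, or 20.9% of counts, with 201734 to 214806 in single fetuses. *miR-148a-3p* was steady at 4101 to 4393 CPM and *miR-194-5p* stood at 2369 ± 241 CPM. *miR-802-5p* was low at 17.9 ± 11.9 CPM, with 6 to 28 counts in a library.

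The 5 erythroid miRs summed to 28107 ± 2710 CPM. *miR-486a-5p/486b-5p* gave the most, 16942, 12501, 14394, 15466 and 13104 CPM in WT 1 to WT 5. *miR-451a* hardly varied, 8201 to 8778 CPM, while its cluster partner *miR-144-3p* ran from 2619 CPM in WT 5 to 4667 CPM in WT 4 and *miR-144-5p* from 1438 to 1986 CPM. The lesser arm *miR-486a-3p/486b-3p* was at 58.6 CPM. WT 1 and WT 4 were the 2 highest fetuses for the erythroid sum, at 30799 and 30977 CPM, and the same 2 were highest for the white blood cell sum.

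The 6 white blood cell miRs summed to 13271 ± 944 CPM, most of it from *miR-142a-5p* (9966 ± 916 CPM). *miR-142a-3p* was at 1707 ± 232 CPM and *miR-223-3p*, a miR of granulocytes and their precursors, at 1466 ± 179 CPM. Of the miRs of mature lymphocytes and of activated cells, *miR-150-5p* was low at 11.8 ± 2.12 CPM. So was *miR-146a-5p* at 13.8 ± 8.73 CPM, with no count in WT 4. *miR-155-5p* had 0, 0, 149, 0 and 298 counts in WT 1 to WT 5. It thus had no count in 3 fetuses and stood at 209 and 320 CPM in the other 2. Under counting error alone a 0 would allow up to 2.48, 3.23 and 3.27 CPM in WT 1, WT 2 and WT 4, but zeros were more frequent in these libraries than counting error gives, so these are no bounds on its level.

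Of the mesenchymal list, *miR-143-3p* gave nearly all of the 33984 ± 2815 CPM. *miR-199a-5p* was at 1515 ± 433 CPM, *miR-199a-3p/199b-3p* at 1188 ± 299, *miR-145a-5p* at 238 ± 52.4, *miR-199b-5p* at 190 ± 33.5, *miR-145a-3p* at 81.5 ± 16.5 and *miR-214-3p* at 52.3 ± 20.3 CPM. *miR-199a-5p*, *miR-199a-3p/199b-3p* and *miR-214-3p*, which are made in part from a shared transcript in fibroblast-like cells, were each lowest or next to lowest in WT 1 and highest or next to highest in WT 4. The endothelial *miR-126a* summed to 1123 ± 128 CPM, with *miR-126a-3p* at 723 ± 59.4 and *miR-126a-5p* at 399 ± 73.3 CPM. The epithelial list summed to 1622 ± 235 CPM. Beside *miR-429-3p* it held *miR-200b-3p* at 136 ± 13.3, *miR-200a-3p* at 124 ± 10.1, *miR-141-3p* at 74.99 ± 38.2 and *miR-200c-3p* at 11.2 ± 5.50 CPM.

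Of the lists for tissues outside the liver, those of muscle and embryonic stem cells were low, and those of pancreas and nerve tissue each held miRs well above the floor. None of the 6 muscle miRs (*miR-1a-3p*, *miR-133a-3p*, *miR-206-3p*, *miR-208a-3p*, *miR-208b-3p* and *miR-499-5p*) was a member, and they summed to 24.7 CPM. Of the 4 pancreas miRs only *miR-375-3p* was a member, at 170 ± 32.7 CPM, whereas *miR-216a-5p* had no count and *miR-216b-5p* and *miR-217-5p* had at most 10 in any library. Of the 10 embryonic stem cell miRs 8 had no count in any fetus (*miR-290a-5p*, *miR-291a-3p*, *miR-292a-3p*, *miR-302a-3p* to *miR-302d-3p* and *miR-367-3p*), *miR-294-3p* had at most 10 and *miR-295-3p* was a member at 18.45 ± 5.23 CPM. Of the 6 neural miRs *miR-124-3p* and *miR-137-3p* had no count, *miR-129-5p* and *miR-219a-5p* were below the limit for members, and *miR-128-3p*, which other tissues also make, stood at 85.6 ± 8.05 CPM. *miR-9-5p* had 130, 75, 72, 27 and 17 counts in WT 1 to WT 5, or 18.2 to 107 CPM.

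The spread between fetuses was taken as the coefficient of variation (CV) of CPM left after the part that counting error gives was removed. Its median was 11.6% over the 388 members, with quartiles of 5.97% and 20.2%, and 9.89% over the 199 members of at least 100 CPM. Of these 199, 195 lay within a 2-fold range over the 5 fetuses, 103 had a CV under 10%, 18 had one over 20% and 9 had none beyond counting error. The median was 5.57% for the 3 miRs above 100000 CPM, 8.41% for the 18 above 10000, 9.99% for the 51 above 1000, 10.1% for the 127 above 100 and 17.5% for the 189 below. The median was thus lower in the higher bins, although single abundant miRs lay above it, as *miR-22-3p* (13.3%) and *miR-192-5p* (14.99%) did.

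Of the members of at least 100 CPM, the 8 with least spread were *miR-139-5p*, *miR-154-3p*, *miR-200a-3p*, *miR-299a-3p/299b-3p*, *miR-337-3p*, *miR-339-5p*, *miR-376b-5p* and *miR-421-3p*, all with no spread beyond counting error. The ninth without such spread, *miR-450a-5p*, was named after its values were seen. Among these 8 *miR-339-5p* had the smallest total CV, 3.38%, at 223, 240, 223, 221 and 226 CPM in WT 1 to WT 5. All 8 had mean levels between 107 and 324 CPM, where counting error is a large part of the spread. Among the most read miRs, *miR-127-3p* had a CV beyond counting of 3.03%, *miR-148a-3p* 1.98% and *miR-451a* 2.45%.

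The 8 with most spread were led by *miR-155-5p* (141%). *miR-1983* (28.8%) stood at 520, 320, 756, 512 and 563 CPM in WT 1 to WT 5, highest in WT 3 and lowest in WT 2. *miR-199a-5p* (28.5%) and *miR-199a-3p/199b-3p* (24.98%) came next, the former at 999, 1454, 2013, 1892 and 1216 CPM. The other 4 were 5p arms from the *Dlk1*-*Dio3* region: *miR-493-5p* (24.6%), *miR-299a-5p/299b-5p* (23.9%), *miR-379-5p* (23.9%) and *miR-337-5p* (22.3%), each lowest in WT 1. The opposite arms of 2 of them, *miR-299a-3p/299b-3p* and *miR-337-3p*, were among the 8 steadiest. *miR-299a-5p/299b-5p* had 144, 300, 225, 241 and 264 CPM where *miR-299a-3p/299b-3p* had 305, 315, 348, 315 and 337 CPM.

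**Figure D5:**
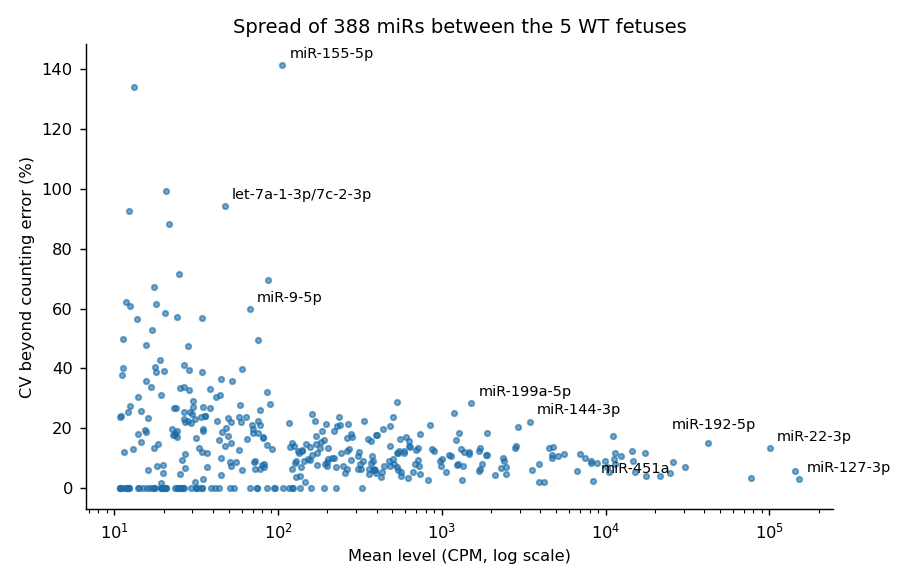
CV between 5 fetuses beyond counting error against mean level (log scale) for 388 miRs. Points at 0 had no spread beyond counting error. Above 1000 CPM all points lie under 30%, and *miR-155-5p* is the only one above 100 CPM that exceeds it.

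*miR-155-5p* alone also set how alike the libraries seemed. Over the 199 members of at least 100 CPM the lowest r of log2(CPM + 1) between 2 fetuses was 0.965 with it and 0.992 without it. A count of 0 was found in 13 members and 19 of their 1940 entries. Over all miRs, entries for which the level in the other 4 libraries gives 10 to 20 counts were 0 in 20 of 349 cases, where counting error alone would give 0.00209, and those of 20 to 50 counts were 0 in 7 of 406. Above 50 counts the only 3 zeros were those of *miR-155-5p*. Examples are *miR-877-3p*, with 55, 39, 37, 30 and 0 counts in WT 1 to WT 5, and *miR-1933-3p*, with 24, 19, 0, 31 and 26, both chosen after their values were seen. In these libraries no entry had a count of 1, and the smallest above 0 was 2. A listed 0 is therefore no sign on its own that a liver lacked a miR.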

How the data were processed

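From total RNA (miRNeasy), the authors prepared TruSeq Small RNA libraries for a NovaSeq6000, and used miRge 3.0 for alignment and counting. The deposited values are raw counts per mature miR, neither normalized nor pooled, and miRs whose reads cannot be told apart share an entry (18 among the members). The miR reference and adapter trimming are not given in the sources used here. GRCm38 is the build in the submitters' processing notes. Groups came from the labels and columns were matched by animal number.

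CPM used all miR counts of a library. Members were the miRs with a mean of at least 10 counts over the 5 WT libraries. Seeds (bases 2 to 8) were read from RefSeq for 339 members, 5 members without a sequence joined the family of their number and arm, and 44 stood alone. Of the members, 383 were placed on a gene of GENCODE vM21. Hairpin groups were classed by a mean 5p share of at least 90% or at most 10%. CV beyond counting error is the square root of the squared CV less its Poisson part. The text names the 20 most abundant miRs, leading members of the 10 largest families, the most abundant hairpins of each arm class, the least and most spread miRs over 100 CPM, all miRs of the cell type lists, leading miRs of the imprinted places and the 3 miRs on each side of the limit. Members and lists were chosen with earlier results of these data known. Alternatives were other scalings, filters, seed and class limits, dispersions from edgeR 4.0.16 and DESeq2 1.42.0 under R 4.3.3, and leaving out each fetus. Leaving out *miR-155-5p* and TMM scaling of the *Dlk1*-*Dio3* deviation were added after seeing the data. The spread and arm code was tested on simulated data. Figures were drawn with matplotlib 3.10.9 under Python 3.11.15. The fetuses were separate animals, so the SDs hold both biological and library variation.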

Additional observations from a re-analysis of the deposited data

Results flagged for a closer look

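Of 118 values examined over the 5 fetuses, 8 had 1 fetus whose gap to the nearest other was over 0.71 of the whole range (Dixon's limit for 5 samples), a share near the 1 in 20 that chance alone flags. *miR-30e-5p* stood at 27113 CPM in WT 5 and at 24054 to 24503 CPM in the other fetuses. *miR-483-3p* stood at 1319 CPM in WT 5 against 1016 to 1083, and with it the share of the *Igf2* miRs was 0.164% in WT 5 against 0.129% to 0.138%. The 5p share of *miR-151* was 55.7% in WT 5 against 47.7% to 48.9%. *miR-339-5p* stood at 240.0 CPM in WT 2 against 221 to 226, a spread within counting error, and *miR-669a-5p/669p-5p* at 71.0 CPM in WT 2 against 32.7 to 40.7. The *Dlk1*-*Dio3* share was 26.8% in WT 1 against 29.5% to 30.4%, and the share of *Rian* inside that region was 0.399% in WT 1 against 0.482% to 0.493%. Over all 388 members, 22 (5.67%) passed the same limit, and 8 of these were high in WT 5.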

How the results depend on the processing

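Of 72 values from alternatives other than leaving out a fetus, 54 moved by less than the spread between fetuses, or by less than 1.5 times for counts. The limit for a median CV was narrower, the SD of its values with each fetus left out in turn. A limit of a mean of 100 counts left 198 members in place of 388. Without the 2 most abundant miRs, the remaining shares were 63.3% for the top 10 families, 16.5% for *miR-30*, 8.56% for *let-7*, 19.95% for *Dlk1*-*Dio3* and 0.0307% for *Sfmbt2*, which follows from the smaller total and, for *Dlk1*-*Dio3*, the loss of *miR-127-3p*. With at least 100 counts in every library, 141 hairpin groups were left, 48 with the 5p arm and 45 with the 3p arm at 90% or more, 48 between and 19 even. The median CV beyond counting error of all members was 10.4% with TMM scaling, 17.998% with edgeR's tagwise dispersion and 17.6% with DESeq2's, both of which share information between miRs, and over 100 CPM the values were 9.08%, 11.98% and 11.6%. Leaving out each fetus in turn gave 9.99% to 11.4% for all members and 9.06% to 10.3% over 100 CPM. In 139 of 145 cases leaving out a fetus moved a value by less than the limits above. For means over fetuses this was largely fixed in advance, because dropping 1 of 5 fetuses cannot move a mean by its SD. The count is therefore no measure of stability. All 6 values that moved were median CVs. The lowest r over 100 CPM was 0.992 without *miR-155-5p*. Depth limits the 189 members below 100 CPM, whose spread and lesser arms rest on few counts. No paired analysis was possible because no groups were compared.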
